A study of Mus musculus with 24 samples.

Results

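The aminoacyl-tRNA synthetases are the enzymes that join each amino acid to its tRNA. Of 38 gene names, 20 code for cytosolic enzymes, 15 for mitochondrial enzymes (names ending in 2) and 3 for proteins that hold the cytosolic multi-synthetase complex together or bind to it. Members were found by the gene name printed beside each array probe, and 36 of the 38 had a probe, among 27597 gene names on the array. The names Aimp1 and Aimp2 were not found, and their earlier names Scye1 and Jtv1 were, so both genes are given separately and stand outside the counts.

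RNA came from N1E-115, a mouse neuroblastoma cell line used as a model of neurons. WT cells were not transfected. TO cells carried a fusion of the N-terminal part of transcobalamin (TCN2, the carrier protein of vitamin B12, cobalamin) with oleosin, which binds cobalamin strongly, and OT cells carried the C-terminal counterpart, for which no binding was detected. Each line was sampled in proliferation medium (suffix p, 10% fetal calf serum) and in differentiation medium (suffix d, 2.5% serum with 1.25% DMSO), both based on DMEM, which gave the groups WT-p, TO-p, OT-p, WT-d, TO-d and OT-d with 4 samples each. Less serum and added DMSO came together, so their parts in a response to the medium cannot be told apart. The labels do not say whether a transfected line was 1 clone or a pool, so a difference between lines and a difference between clones cannot be told apart. The samples are called biological replicates, but in each group 1 sample repeats the code number of another with a suffix b on the opposite dye, and what b stands for is not given, so p-values measure the spread between these samples, which may in part be technical.

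A synthetase uses ATP to activate its amino acid and then loads it onto the matching tRNA, and the charged tRNA goes to the ribosome. The enzymes fall into class I and class II, which have unrelated catalytic folds, and several cytosolic ones are held in a multi-synthetase complex. When a tRNA is left uncharged, the kinase GCN2 (Eif2ak4) phosphorylates eIF2α, and translation of the transcription factor ATF4 rises. Many cytosolic synthetase genes, together with genes of amino acid transport and synthesis, are known ATF4 targets. The mitochondrial enzymes listed here are encoded in the nucleus by genes of their own and serve translation inside mitochondria. The split is by gene name, and a gene counted as cytosolic may also serve mitochondria.

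RefSeq promoters (GRCm38.p6, 250 bases before to 50 bases after the start, 300 in all) were at hand for 30 of the 38 members. They were searched on both strands for TGATGNAA, the core of the element that ATF4 binds with a C/EBP partner. The core stood in 5 of the 13 cytosolic members with a promoter (Aars, Tars, Gars, Iars and Yars), in 0 of 14 mitochondrial members and in 0 of 3 complex proteins, against 3.97% of all 32851 promoters. Cars, Hars, Lars, Nars, Rars, Vars, Wars and Pars2 had no entry. The windows of 30 bases around the core are shown for Tars, Gars, Iars and Yars, with the core in capitals, so that the letters around it can be compared. Read in the direction of transcription, the core lay upstream of the start in Tars and Gars and just past it in Iars and Yars.
Tars, chr15:11399655-11399684, minus strand: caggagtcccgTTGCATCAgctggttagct
Gars, chr6:55037960-55037989, plus strand: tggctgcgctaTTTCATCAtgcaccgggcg
Iars, chr13:49682126-49682155, plus strand: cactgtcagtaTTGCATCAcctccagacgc
Yars, chr4:129189895-129189924, plus strand: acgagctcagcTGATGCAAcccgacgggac
Tars and Iars share the run TTGCATCA, the reverse complement of which Yars holds, and Gars has TTTCATCA. The search set every letter of the core except N, so apart from the strand the capitals could differ only there. A match describes these letters and is neither a measured site nor a cause. The 250 bases before the start are printed for Tars, one of the members that differed most between TO and OT cells in differentiation medium, with the same core in capitals.
Tars, chr15:11399659-11399908, minus strand: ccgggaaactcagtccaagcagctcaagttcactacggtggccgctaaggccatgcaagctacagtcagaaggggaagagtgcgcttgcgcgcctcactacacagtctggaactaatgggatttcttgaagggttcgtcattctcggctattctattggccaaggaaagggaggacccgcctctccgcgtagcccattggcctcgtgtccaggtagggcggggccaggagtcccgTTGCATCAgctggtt

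Levels are normalized log2 intensities of the brightest probe of a gene, 1 value per sample and 4 per group, from 12 arrays that carried 2 samples each on 3 slides, and their number limits the precision. Differences are fitted log2 differences, and a gene was called at a limma adjusted p under 0.05 over the 16239 genes tested. All 36 members were tested, and all but Eprs, which passed in 22 samples, were well above background in all 24 samples. The cells matched their label, since 9 of 10 sympathoadrenal neuroblastoma markers (Hand2, Th and Chga among them) were above background in all 24 samples and Nefl in none. Of the markers of other cells, 3 of 6 for glia (S100b among them), 1 of 6 for blood and endothelium (Hba-a1, with Ptprc, Itgam and Cdh5 in none) and 2 of 6 for fibroblasts and smooth muscle (Acta2 and Tagln) were above background in every sample. The arrays measured bulk RNA, so fewer cells of a type and less RNA per cell cannot be told apart. The Tcn2 probe read 8.08 ± 0.20 in WT-p, 9.13 ± 0.06 in TO-p and 7.76 ± 0.07 in OT-p, and 9.03 ± 0.14 in WT-d, 9.65 ± 0.13 in TO-d and 9.19 ± 0.06 in OT-d (SD, n = 4).

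TO-p replicate 4 stood apart, with a root mean square deviation from its fitted values of 0.386 over all genes, against 0.0835 to 0.233 in the other 23 samples. Its cytosolic synthetases lay lower than fitted by a median of -0.271, but single enzymes went both ways. Among the TO-p samples it was the highest for Aars, Tars, Sars, Lars and Kars. For most others, such as Nars, Cars and Vars, it was the lowest. Counts and members that rest on TO-p are therefore also given without it. The Eprs probe fell near background in both dyes of 1 array, at 6.50 in WT-p replicate 1 and 6.10 in OT-p replicate 3, against 11.97 to 13.61 in the other 22 samples. In these same samples the other 3 Eprs probes were well above background. Eprs, which charges tRNAs with both glutamate and proline, was not called in any comparison with this spot. Its own values below leave the spot out, a choice made after seeing the data, while the counts and medians keep it.

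In WT cells most cytosolic synthetase RNAs were lower in differentiation medium. Of the 20 cytosolic enzymes 17 fell and 1 rose between WT-p and WT-d, while 28% of all genes tested fell and 32.9% rose, and the median difference was -0.91 against 0.06 for all genes. The falls were largest in Aars (alanine), Vars (valine) and Mars (methionine). Aars stood at 15.53, 15.08, 15.62 and 15.56 in the 4 WT-p samples and at 13.96, 14.08, 14.03 and 13.51 in WT-d. Its groups did not overlap, and the log2 difference was -1.57 (SE 0.17, adjusted p = 6.23e-08 by limma), a 2.98-fold drop. Vars stood at 12.01, 11.52, 12.02 and 11.88 in WT-p and at 10.29, 10.08, 10.45 and 10.75 in WT-d, again without overlap, a difference of -1.42 (SE 0.17, adjusted p = 2.57e-07). Mars stood at 13.67, 13.09, 13.67 and 13.44 in WT-p and at 11.95, 11.91, 12.12 and 12.09 in WT-d, all 4 lower, a difference of -1.40 (SE 0.13, adjusted p = 8.55e-09). Gars (glycine), Cars (cysteine) and Tars (threonine) followed at -1.39, -1.28 and -1.28. Kars, the lysine enzyme, fell least among the called at -0.33, and Sars, the serine enzyme, read -0.18 and was not called. Eprs read -0.81 (adjusted p = 5.17e-05) with the failed spot left out, and +0.54 with it. The median was -0.94 within slide 1 and -0.80 within slide 3, the slides that held both groups.

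In OT cells, too, most cytosolic enzymes fell. Between OT-p and OT-d 17 of 20 cytosolic enzymes fell and 1 rose, with a median of -0.72, where 28.1% of all genes fell and 33.9% rose. Aars fell most, from 15.56, 15.74, 15.92 and 15.91 in OT-p to 14.01, 13.53, 14.13 and 14.03 in OT-d. That is a difference of -1.94 (SE 0.16, adjusted p = 7.75e-10), or 3.83-fold, with no overlap. Tars went from 15.21, 15.24, 15.29 and 15.31 to 13.99, 13.58, 14.12 and 14.25, a difference of -1.32 (SE 0.12, adjusted p = 2.28e-09). Cars went from 12.55, 12.59, 12.61 and 12.50 to 11.36, 11.46, 10.98 and 11.17, a difference of -1.28 (SE 0.12, adjusted p = 5.81e-09). In both genes the OT-d samples all lay below the OT-p samples. Dars, the aspartate enzyme, read 0.21 and was not called. The median was -0.77 within slide 2 and -0.63 within slide 3.

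**Figure D1:**
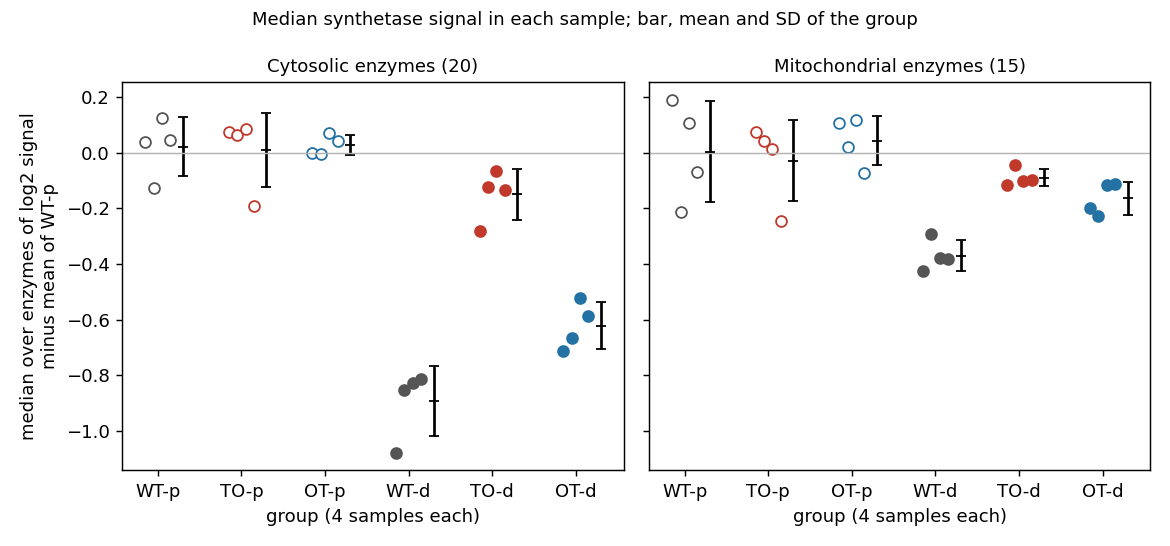
Median over the 20 cytosolic (left) and 15 mitochondrial (right) synthetase genes of the log2 signal less the mean of WT-p, for each of the 24 samples by group; bars give the mean and SD of the 4 samples. The cytosolic medians of WT-d run from -1.08 to -0.81, those of OT-d from -0.71 to -0.52 and those of TO-d from -0.28 to -0.07, and the 3 groups do not overlap.

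In TO cells the falls were shallower for most of these enzymes, as the test between lines below shows. Between TO-p and TO-d 7 of 20 cytosolic enzymes fell and 1 rose, with a median of -0.26, where 18.9% of all genes fell and 21.1% rose. Aars fell most among members with all samples, from 15.64, 15.50, 15.76 and 16.47 in TO-p to 14.65, 14.83, 15.01 and 14.87 in TO-d, without overlap. The difference was -1.003 (SE 0.16, adjusted p = 4.22e-05), a 2.00-fold drop. Cars, Tars, Mars, Gars, Kars and Lars (leucine) were also called, at -0.57, -0.53, -0.49, -0.39, -0.34 and -0.29, but the other 2 Lars probes read 0.22 and 0.01. Rars, the arginine enzyme, rose by 0.31 (SE 0.12, adjusted p = 0.0402), with groups that overlapped. Without TO-p replicate 4, 9 fell and 0 rose, with a median of -0.24, where 23.6% of all genes fell and 24.4% rose. Aars was then at -0.81, and the mitochondrial enzymes Sars2 and Tars2 fell more, at -1.05 and -0.95. Lars (-0.19, adjusted p = 0.066) and Rars (0.18, adjusted p = 0.145) were no longer called, and Nars (asparagine), Vars and Farsa were, at -0.65, -0.48 and -0.27. Leaving out TO-d replicate 4 left 5 called in place of 8, and the samples without a suffix b alone gave 4. The median was -0.43 within slide 1, -0.105 within slide 2, which held TO-p replicate 4, and -0.23 within slide 3. Slides 1 and 3 held 1 sample of each group.

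The difference between lines in the response to the medium was tested directly. Against OT cells, the response of TO cells was higher, that is less negative or more positive, for 12 of 20 cytosolic enzymes and lower for 1, where 14.7% and 19.2% of all genes were called. Against WT cells it was higher for 14 and lower for 1, where 14.5% and 15.2% of all genes were called. The medians were 0.58 and 0.71. Among cytosolic enzymes Rars and Vars differed most in both comparisons with all samples. The Rars response in TO cells exceeded that in OT cells by 0.98 (SE 0.17, adjusted p = 0.000122) and that in WT cells by 1.15 (SE 0.17, adjusted p = 5.6e-05). For Vars these differences were 0.98 (SE 0.23, adjusted p = 0.00244) and 1.15 (SE 0.23, adjusted p = 0.00109). Part of them lay in proliferation medium, where Rars and Vars read -0.39 and -0.54 in TO-p against OT-p, or -0.26 and -0.32 without TO-p replicate 4. In TO-d against OT-d they read 0.59 and 0.44. Against WT cells they read -0.18 and -0.52 in TO-p, and 0.96 and 0.62 in TO-d. For Aars the excess over OT was 0.93 (SE 0.23, adjusted p = 0.00386), while that over WT was 0.57 (SE 0.24, adjusted p = 0.0721) and was not called. Both comparisons share the TO samples. The response of OT cells differed from that of WT cells for 1 cytosolic enzyme, Dars (0.63, SE 0.19, adjusted p = 0.0184), where 15.1% of all genes were called higher and 9.54% lower. Leaving out WT-p replicate 2 gave 2 such enzymes. With TO-p replicate 4 left out, 13 enzymes were higher against OT with a median of 0.50, and 14 against WT with a median of 0.59. The shares of all genes called higher were then 16.3% and 16.9%. The Rars and Vars differences were then 0.87 and 0.80 against OT and 1.03 and 0.96 against WT, all called, and Aars was called against WT as well, at 0.75 (adjusted p = 0.00349). Against OT, Aars (1.097) and Tars (0.90) then exceeded both.

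**Figure D2:**
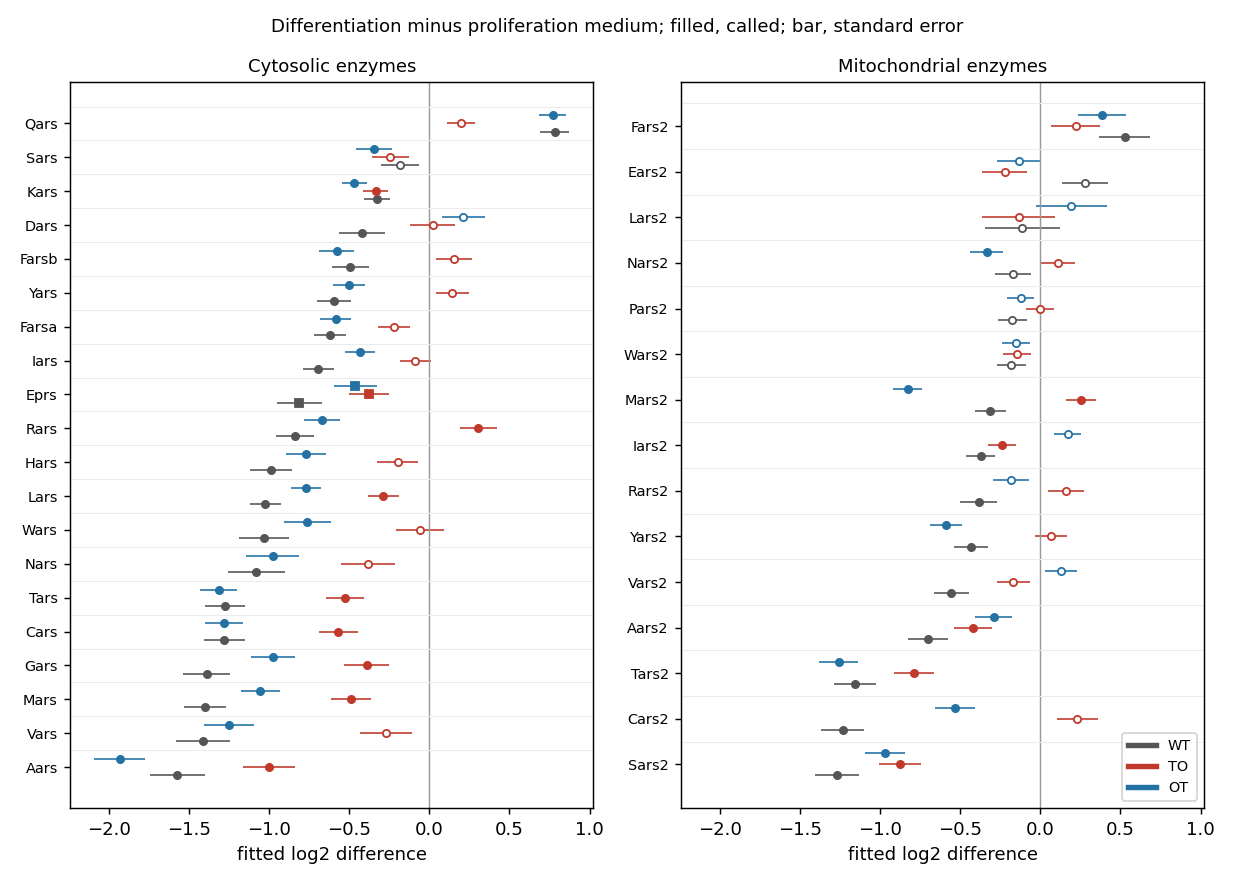
Fitted log2 difference of differentiation minus proliferation medium (horizontal axis) with its standard error for each cytosolic (left) and mitochondrial (right) enzyme in WT, TO and OT cells; filled symbols are called, and squares mark Eprs with the failed spot left out. Most cytosolic enzymes of WT and OT lie between -0.33 and -1.94, those of TO lie nearer to 0, and Qars lies on the positive side in all 3 lines.

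In differentiation medium most cytosolic synthetase RNAs were higher in TO cells than in either other line. Of 20 cytosolic enzymes 13 were higher in TO-d than OT-d and 0 lower, with 13.8% and 17.4% of all genes called, and the median was 0.48. Against WT-d 18 were higher and 0 lower, with 18.9% and 20% of all genes called, and the median was 0.59. The largest difference from OT-d was in Wars, the tryptophan enzyme, which is also known as an interferon-inducible gene. Wars stood at 12.83, 12.89, 12.90 and 13.01 in TO-d, at 11.46, 11.66, 11.20 and 11.35 in OT-d and at 11.61, 11.85, 11.88 and 11.72 in WT-d. The TO-d samples lay above all others, by 1.46 over OT-d (SE 0.16, adjusted p = 6.55e-07, 2.74-fold) and 1.096 over WT-d (SE 0.16, adjusted p = 1.96e-05, 2.14-fold). The second Wars probe gave 1.25 against OT-d. Tars stood at 14.87, 14.79, 15.00 and 15.01 in TO-d, against at most 14.25 in OT-d, a difference of 0.98 (SE 0.12, adjusted p = 4.25e-06). The second Tars probe gave 0.76. Aars was higher in TO-d than OT-d by 0.96 (SE 0.17, adjusted p = 0.000173), with every TO-d sample above every OT-d sample. A second bright Aars probe gave 0.76, but one above background in 23 samples gave 0.04. Aars probes above background in 13 and 5 samples gave 0.0009 and 0.09.

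Iars, the isoleucine enzyme, had the next largest difference from WT-d after Cars2 and Wars. It stood at 13.16, 13.20, 13.13 and 13.29 in TO-d and at 12.14, 12.22, 12.24 and 12.20 in WT-d. The groups were apart by 0.98 (SE 0.10, adjusted p = 3.3e-07). Lars was higher in TO-d by 0.83 against OT-d and 0.95 against WT-d, and Eprs by 0.83 (adjusted p = 8.23e-05) and 0.62 (adjusted p = 0.0013) with the failed spot left out. Hars (histidine), Dars and Farsa (a subunit of the phenylalanine enzyme) were higher in TO-d than WT-d at 0.50, 0.43 and 0.39 but read -0.16, -0.05 and -0.04 against OT-d, not called. A second Hars probe, above background in 20 samples, read -0.04 in TO-d against WT-d. Within slides the median against OT-d was 0.60 (slide 2) and 0.56 (slide 3), and against WT-d 0.60 (slide 1) and 0.82 (slide 3). The counts were 6 and 9 in place of 13 and 18 when arrays were normalized by loess alone, and 8 and 11 when samples with the suffix b were left out, and the median against OT-d was 0.31 by loess alone.

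**Figure D3:**
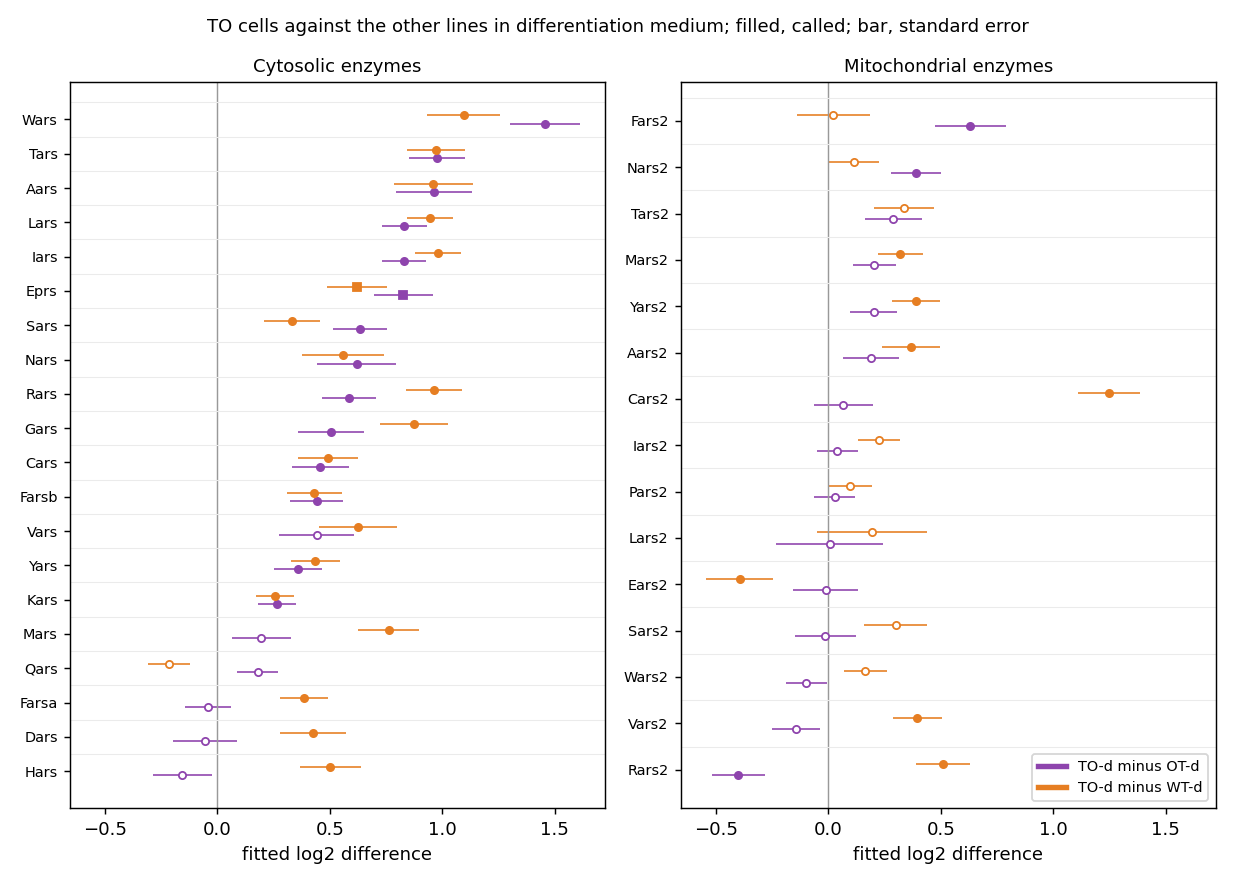
Fitted log2 difference of TO-d minus OT-d and TO-d minus WT-d (horizontal axis) with its standard error for each cytosolic (left) and mitochondrial (right) enzyme; filled symbols are called, and squares mark Eprs with the failed spot left out. Wars reaches 1.46 against OT-d, whereas Hars reads -0.16, and among mitochondrial enzymes Cars2 reaches 1.25 against WT-d but 0.07 against OT-d.

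Qars, the glutamine enzyme, rose with the medium and was the 1 cytosolic enzyme called higher in WT and in OT. It stood at 13.05, 13.37, 13.26 and 13.33 in WT-p and at 14.04, 13.90, 14.03 and 14.24 in WT-d, and it rose by 0.78 (SE 0.09, adjusted p = 1.69e-07). In OT cells it stood at 12.91, 12.90, 12.84 and 12.91 in OT-p and at 13.48, 13.58, 13.76 and 13.75 in OT-d, and it rose by 0.77 (SE 0.08, adjusted p = 6.28e-08). Neither pair of groups overlapped, and a second probe gave 0.74 and 0.65. A dimmer probe, above background in 19 samples, gave 0.19 and -0.07. In TO cells the values were 13.58, 13.63, 13.86 and 13.43 in TO-p and 13.74, 13.84, 13.88 and 13.89 in TO-d, which overlapped, and the difference of 0.20 was not called. The response in TO cells was lower than in OT cells by -0.58 (SE 0.13, adjusted p = 0.0012) and than in WT cells by -0.59 (SE 0.13, adjusted p = 0.00159). In proliferation medium TO-p exceeded OT-p by 0.76 (SE 0.09, adjusted p = 3.44e-07) and WT-p by 0.37 (SE 0.08, adjusted p = 0.00241), all 4 samples above. In differentiation medium TO-d read 0.18 against OT-d and -0.21 against WT-d, neither called. Without TO-p replicate 4 the response differed by -0.65 and -0.66, and TO-p was higher by 0.85 and 0.46, all called.

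**Figure D4:**
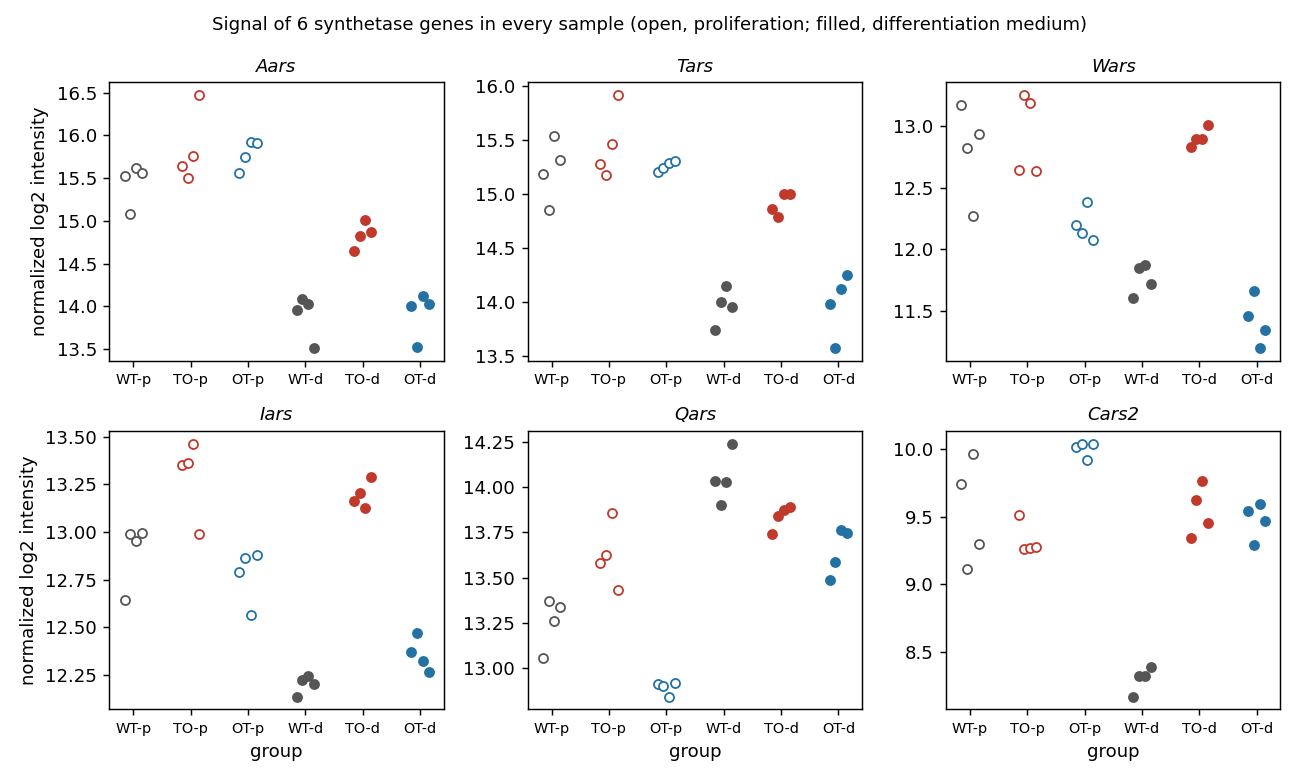
Normalized log2 intensity of Aars, Tars, Wars, Iars, Qars and Cars2 in each of the 24 samples by group; open symbols are proliferation and filled symbols differentiation medium, and the vertical axes differ between panels. Aars, Tars, Wars and Iars are higher in all 4 TO-d samples than in any WT-d or OT-d sample, Qars is higher in WT-d and OT-d than WT-p and OT-p, and Cars2 is lowest in WT-d.

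The cytosolic enzymes were also split by class, complex and known ATF4 response, the last a list of 12 from general knowledge. For reference, 13.8% of all genes were higher in TO-d against OT-d and 18.9% against WT-d, and 28%, 28.1% and 18.9% fell with the medium in WT, OT and TO. Of the 12 listed ATF4 targets, 10 were higher in TO-d than OT-d (median 0.73) and 11 than WT-d (median 0.82). Of the other 8 enzymes these counts were 3 (median 0.22) and 7 (median 0.43). With the medium, 10 of the 12 fell in WT (median -1.06), 11 in OT (median -0.87) and 6 in TO (median -0.38), and of the other 8 the numbers that fell were 7, 6 and 1. With TO-p replicate 4 left out, 6 of the 12 (median -0.46) and 3 of the 8 (median -0.13) fell in TO, where 23.6% of all genes fell. Class I and class II enzymes, 10 each, had medians of 0.52 and 0.47 for TO-d against OT-d, with 6 and 7 called higher. Among the 8 enzymes of the multi-synthetase complex (Eprs, Iars, Lars, Mars, Qars, Rars, Kars and Dars) 4 were higher in TO-d than OT-d and 6 than WT-d. These are counts and medians, and no difference between the lists was tested.

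Of the complex proteins, Eef1e1, a small partner of the complex, followed both the medium and the line. In proliferation medium it stood at 12.75, 13.24, 13.04 and 12.76 in TO-p against 12.40, 12.39, 11.76 and 12.30 in WT-p, without overlap. It was higher by 0.72 (SE 0.11, adjusted p = 7.87e-05), the largest called difference of a member between these groups. In TO-d it was higher than WT-d by 0.90 and than OT-d by 0.40, both called. OT cells were also higher than WT cells, by 0.34 in OT-p and 0.50 in OT-d, both called. Eef1e1 fell with the medium in WT, TO and OT by 0.52, 0.34 and 0.36, all called. Without TO-p replicate 4 the value in TO was -0.39, still called. The probe named Jtv1 (Aimp2) fell with the medium in WT and OT, at -0.76 and -0.89, and read -0.17 in TO, not called, or -0.23 without TO-p replicate 4 (adjusted p = 0.0842). Its mean was 9.27 in WT-d, 9.36 in TO-d and 9.26 in OT-d, so the lines differed mainly in proliferation medium. There it was 10.03 in WT-p, 9.53 in TO-p and 10.20 in OT-p. Without TO-p replicate 4, TO-p read -0.60 against OT-p and -0.43 against WT-p, both called. The probe named Scye1 (Aimp1) rose in WT-d by 0.39 and was lower in TO-d than WT-d by -0.71.

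The mitochondrial enzymes had median responses to the medium nearer to 0 than the cytosolic ones, a difference that was not tested. Of 15, 9 fell and 1 rose with the medium in WT (median -0.37), 7 fell and 1 rose in OT (median -0.18), and 4 fell and 1 rose in TO (median -0.14). The shares of all genes that fell were 28%, 28.1% and 18.9%, and those that rose 32.9%, 33.9% and 21.1%. With TO-p replicate 4 left out, 5 fell and 1 rose in TO, and the median was -0.042. The shares of all genes that fell and rose were then 23.6% and 24.4%. Sars2 (serine) and Tars2 (threonine) had the largest falls of the mitochondrial members in TO cells. Sars2 went from 10.20, 10.00, 9.97 and 9.25 in TO-p to 9.06, 9.05, 9.00 and 8.79 in TO-d, a difference of -0.88 (SE 0.13, adjusted p = 1.56e-05). Tars2 went from 12.77, 12.78, 12.78 and 12.18 to 11.78, 11.79, 11.88 and 11.90, a difference of -0.79 (SE 0.12, adjusted p = 2.74e-05). In both, TO-p replicate 4 was the lowest TO-p sample, and the groups still did not overlap, and without it the differences were -1.05 and -0.95. Both fell in WT (-1.27 and -1.16) and OT (-0.97 and -1.26). Fars2 (phenylalanine) rose, by 0.53 in WT and 0.39 in OT. Vars2 fell in WT at -0.56, but its second bright probe read 0.09. Lars2, read by 1 probe at 16.73 to 18.45, was called in none of the 12 comparisons. On average only 1 of the 41174 probes was brighter, and whether this probe reads Lars2 RNA alone was not tested. Lars2 is kept in the mitochondrial counts and medians.

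In differentiation medium 2 of 15 mitochondrial enzymes were higher in TO-d than OT-d (Fars2 by 0.63, Nars2 by 0.39) and 1 lower (Rars2 by -0.40), with a median of 0.04, where 13.8% and 17.4% of all genes were called, so the shares were near those of all genes. Against WT-d 6 were higher and 1 lower, with a median of 0.30, where the shares were 18.9% and 20%. The cysteine enzyme Cars2 differed most. It stood at 9.34, 9.62, 9.76 and 9.46 in TO-d, at 9.54, 9.29, 9.60 and 9.47 in OT-d and at 8.17, 8.32, 8.32 and 8.39 in WT-d. WT-d lay below both transfected lines, by 1.25 against TO-d (SE 0.14, adjusted p = 6.54e-07) and 1.18 against OT-d (SE 0.13, adjusted p = 3.27e-07), whereas TO-d and OT-d overlapped. It fell with the medium in WT at -1.24 and in OT at -0.54 and read 0.23 in TO, not called. The response of TO cells was higher than that of OT cells for 5 mitochondrial enzymes and lower for 1 (median 0.10), and higher than that of WT cells for 4 and lower for 0 (median 0.28), where 14.7%, 19.2%, 14.5% and 15.2% of all genes were called. Mars2 led against OT (1.08, SE 0.13) and Cars2 against WT (1.47, SE 0.19), both larger than any cytosolic difference with all samples. For Mars2 most of it lay in proliferation medium, at -0.87 in TO-p against OT-p and 0.21 in TO-d against OT-d. Cars2 read -0.22 in TO-p against WT-p and 1.25 in TO-d against WT-d. Without TO-p replicate 4 the counts were 5 and 2 (median -0.0086) and 4 and 1 (median 0.17), and the Mars2 and Cars2 response differences were 1.08 and 1.46. The shares of all genes were then 16.3% and 22.6% against OT, and 16.9% and 18.2% against WT.

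The OT line, whose fusion had no detectable cobalamin binding, was compared with WT in differentiation medium. Of the 20 cytosolic enzymes 6 were higher and 2 lower, where 23.4% and 20.8% of all genes were called, and the median was 0.06. Of the mitochondrial enzymes 4 were higher and 3 lower. After Cars2 the largest differences were in Rars2 and Hars. Rars2 (mitochondrial arginine) stood at 11.35, 11.53, 11.48 and 11.61 in OT-d and at 10.42, 10.57, 10.72 and 10.63 in WT-d, a difference of 0.91 (SE 0.11, adjusted p = 1.83e-06). Hars stood at 13.19, 13.25, 13.23 and 13.35 in OT-d and at 12.56, 12.38, 12.74 and 12.83 in WT-d, a difference of 0.66 (SE 0.13, adjusted p = 0.000255). In neither gene did the groups overlap. These groups shared only slide 3, where the cytosolic median was 0.10.

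In proliferation medium cytosolic enzymes were called in both directions between the lines. Between TO-p and OT-p 5 were higher and 7 lower, with a median of 0.03, where 26.3% and 24.4% of all genes were called. Between TO-p and WT-p 4 were higher and 2 lower (13.8% and 13.6% of all genes), and between OT-p and WT-p 2 were higher and 2 lower (16.2% and 18.4%). With TO-p replicate 4 left out the counts were 6 and 4 against OT-p (28% and 25.3% of all genes), and 4 and 0 against WT-p (16.7% and 14.3%). Farsb, Mars and Yars were then no longer called against OT-p nor Vars and Yars against WT-p, and Nars was called against OT-p at 0.32. Leaving out WT-p replicate 3 gave 2 enzymes called between TO-p and WT-p in place of 6, and 0 were called without the samples of suffix b. Of the mitochondrial enzymes 3 were higher and 4 lower in TO-p than OT-p, 0 and 1 than WT-p, and in OT-p 5 were higher and 2 lower than WT-p. Without TO-p replicate 4, 4 were higher and 4 lower than OT-p, and 3 and 0 than WT-p.

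Mars2, the mitochondrial methionine enzyme, stood at 7.95, 7.88, 8.02 and 7.98 in TO-p, at 8.92, 8.80, 8.78 and 8.78 in OT-p and at 8.42, 7.82, 8.39 and 8.11 in WT-p. OT-p lay above both, and TO-p was lower than OT-p by -0.87 (SE 0.09, adjusted p = 1.3e-07), while OT-p was higher than WT-p by 0.63 (SE 0.09, adjusted p = 1.36e-05). Fars2 stood at 9.76, 9.90, 9.70 and 9.40 in TO-p, at 8.83, 8.95, 8.99 and 8.95 in OT-p and at 9.39, 9.40, 9.29 and 9.39 in WT-p. OT-p was here the lowest, by 0.80 under TO-p (SE 0.15, adjusted p = 0.00016), and it differed from WT-p by -0.47 (SE 0.14, adjusted p = 0.0148). Rars2 stood at 11.65, 11.49, 12.003 and 11.61 in OT-p and at 11.32, 10.56, 11.09 and 10.97 in WT-p, higher in all 4 OT-p samples by 0.71 (SE 0.11, adjusted p = 3.12e-05). With TO-p replicate 4 left out, Mars2 and Fars2 differed from OT-p by -0.87 and 0.92, and Eef1e1 from WT-p by 0.77, all called. Yars, the tyrosine enzyme, stood at 12.37, 12.39, 12.37 and 11.95 in TO-p and at 12.64, 12.47, 12.64 and 12.62 in WT-p. It was called at -0.30 (SE 0.10, adjusted p = 0.0283), but not without TO-p replicate 4, at -0.17 (adjusted p = 0.0952). It was also not called without WT-p replicate 1, 3 or 4, at adjusted p of 0.079, 0.0726 and 0.0614. For Lars the brightest probe read 0.35 in TO-p against OT-p and was called, while the other 2 probes read -0.21 and -0.05.

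The other genes of the pathway were read out from lists without members. Of all genes 28% fell and 32.9% rose with the medium in WT, 28.1% and 33.9% in OT, and 18.9% and 21.1% in TO. Without TO-p replicate 4 the shares in TO were 23.6% and 24.4%. In TO-d 13.8% of all genes were higher and 17.4% lower than OT-d, and 18.9% and 20% than WT-d. Of 17 other genes of tRNA charging and quality 11 fell and 1 rose with the medium in WT (median -0.51), 11 fell and 2 rose in OT (median -0.42), and 4 fell and 1 rose in TO (median -0.08), or 6 and 1 without TO-p replicate 4 (median -0.14). Against WT-d 11 were higher in TO-d and 0 lower (median 0.39), and against OT-d 5 and 2 (median 0.03). Xpot, the exporter of tRNAs from the nucleus, was higher in TO-d than WT-d by 0.73. Of 7 cytosolic elongation factors 0 were higher and 1 lower in TO-d than OT-d, and 1 rose and 1 fell with the medium in WT. Of 9 mitochondrial translation factors 7 fell and 1 rose with the medium in WT, and 1 was higher and 3 were lower in TO-d than OT-d.

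Genes of the integrated stress response, the program that ATF4 drives, were read out from 38 tested genes. In TO-d 29 were higher than OT-d and 2 lower (median 0.80), and 25 were higher than WT-d and 2 lower (median 0.53). The largest differences from OT-d were in Trib3 (2.51), Chac1 (1.83), Nupr1 (1.77) and Gdf15 (1.65), and those from WT-d included Atf5 (1.24) and the amino acid transporter Slc7a5 (0.91). With the medium 24 fell and 3 rose in WT, and 23 fell and 2 rose in OT, and the largest falls included Psph and Psat1 of serine synthesis, at -2.66 and -1.94 in WT and at -2.21 and -2.23 in OT. In TO 13 fell and 7 rose, or 15 and 7 without TO-p replicate 4. In proliferation medium 18 were higher and 6 lower in TO-p compared with OT-p (median 0.29), or 20 and 5 without that sample (median 0.415). Of 14 interferon response genes 10 were higher in TO-d than OT-d and 1 lower, led by Ifit1 (2.29), Isg15 (2.27) and Rsad2 (2.03), and 5 were higher and 2 lower than WT-d. In proliferation medium, too, 12 were higher and 0 lower in TO-p compared with OT-p (median 0.63), or 13 and 0 without TO-p replicate 4. The shares of all genes called higher and lower were 13.8% and 17.4% for TO-d against OT-d, 18.9% and 20% for TO-d against WT-d, and 26.3% and 24.4% for TO-p against OT-p. With the medium 10 interferon genes rose and 0 fell in WT. Of all genes 28% fell and 32.9% rose with the medium in WT, 28.1% and 33.9% in OT, and 18.9% and 21.1% in TO. Without TO-p replicate 4 the shares were 23.6% and 24.4% in TO, and 28% higher and 25.3% lower in TO-p against OT-p. The parts of the stress response and interferon genes in the synthetase differences were not tested.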

How the data were processed

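The deposited scanner tables hold, per the file headers, spot intensity for both dyes as written by Agilent Feature Extraction 10.5.1.1, and the authors' deposited series table holds 1 intensity per spot and sample. Probe positions and names are those in the files, on mm8. In R 4.3.3 with limma 3.58.1, intensities were corrected by normexp (offset 50), normalized by loess within arrays and Aquantile between arrays, and put on the log2 scale by dye. Control spots (1639) and outlier values (0.294%) were left out. Median raw signals ran from 66.75 to 165.6, and 54.26 to 65.87% of spots were well above background. Spots of a probe were averaged, the brightest probe stood for a gene, and genes went into the test if every sample of 1 or more groups was well above background (16239 of 27597). The model had 6 group means and a dye term, with array as a block (correlation 0.251, 17 residual degrees of freedom), and p-values are limma's, two-sided, with Benjamini-Hochberg adjustment. A gene was called at adjusted p under 0.05. Members were those of the gene name list, and per-sample values are given for the 3 called members with the largest differences and no overlap in each pair of groups, and for any member not above background in a group. Members and lists were chosen with earlier results of these data known. Replicate numbers did not pair the samples. A promoter sequence, a second promoter motif and the names of some markers are not reported here.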

Additional observations from a re-analysis of the deposited data

Results flagged for a closer look

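Among 120 sets of 4 values tested (the named members and the list medians in the 6 groups), 14 had a sample far from the other 3, where chance gives about 1 in 20. For Eprs these were WT-p replicate 1 (6.50, next 12.89) and OT-p replicate 3 (6.10, next 12.60), the 2 dyes of 1 array. TO-p replicate 4 was lowest for Tars2 (12.18, next 12.77), Yars (11.95, next 12.37) and the median of cytosolic enzymes (-0.19, next 0.06). WT-d replicate 1 was lowest for the cytosolic median (-1.08, next -0.85) and WT-d replicate 2 for Fars2 (9.27, next 10.05). In WT-p the lowest sample stood apart for Eef1e1 (11.76), Fars2 (9.29), Iars (12.64), Tars2 (12.44) and Yars (12.47). The highest stood apart for Cars2 in TO-p (9.51) and Mars2 in OT-p (8.92).

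Of the 7 members named for a response to the medium, the response differed between TO and OT cells for Vars (0.98), Aars (0.93), Tars (0.79), Cars (0.72), Mars (0.57) and Tars2 (0.47). Between TO and WT cells it differed for Vars (1.15), Mars (0.91), Tars (0.75) and Cars (0.71). All 10 had a limma adjusted p between 0.000929 and 0.0463 for the difference itself, and each was higher in TO cells. The 7 members were chosen from these same samples for large responses in a line, so their shared direction is no separate test.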

How the results depend on the processing

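No named gene changed sign under any alternative run, but cytosolic medians did in the 3 comparisons within proliferation medium and for the OT against WT response, and mitochondrial medians did in these 4 and for the TO against OT response. Eprs, not called with its failed spot, went from 0.54 to -0.81 in WT and from 0.82 to -0.46 in OT with the medium when the spot was left out (adjusted p = 5.17e-05 and 0.00504). Of the counts, medians and named genes under the processing alternatives, 740 of 864, 271 of 288 and 320 of 324 kept their direction and side of the threshold or stayed within their margin. The cytosolic enzymes called that moved by over 1.5 times were as follows. By loess alone 6 were called in TO-d against OT-d, 3 in TO-p against WT-p, 9 in TO-d against WT-d, 5 in OT-d against WT-d, 8 for the TO against WT response and 0 for the OT against WT response. Without the samples of suffix b these were 8, 0 and 11 for the first 3, 4 for TO-d against TO-p and 8 for the TO against OT response. OT-p against WT-p gave 7 with quantile normalization and 7 from the series table. The OT against WT response gave 3 with the processed signal, 3 with quantile normalization and 2 from the series table. Medians moved to -0.12 (TO-p against OT-p) and -0.71 (WT-d against WT-p) with the mean of all probes, 0.31 (TO-d against OT-d) by loess alone, 0.0892 (TO-p against WT-p) from the series table, 0.60 (TO against WT response) with quantile normalization, and 0.48 (TO-d against WT-d) and -0.011 (OT against WT response) without suffix b. Leaving out 1 sample gave 2 to 8 called for TO-p against WT-p, 5 to 9 for TO-d against TO-p, 1 to 2 for the OT against WT response, and medians of 0.591 to 0.746 for the TO against WT response. Settings without suffix b or 1 sample use fewer samples, and for the others the cause was not tested. With the Eprs spot left out, a choice made after seeing the data, the counts differed by at most 1. The processed signal shifted the median of all genes by 0.195 for WT-d against WT-p.

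With the replicate number as a block, 13 cytosolic enzymes were called in TO-d against OT-d and 18 in TO-d against WT-d, as without it. Deviations of same-numbered samples correlated at -0.0237 on average over 60 pairs, against 0.00843 over 180 other pairs, so the samples share only a number.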
